A study of Homo sapiens with 6 samples.

Results

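The genes described here act on DNA methylation or on the silencing and processing of retroelements. They were chosen by name, with earlier results of these data known. They are the DNA methyltransferase genes DNMT1, DNMT3A and DNMT3B, their partner UHRF1, the dioxygenase genes TET2 and TET3, the heterochromatin genes SETDB1 and TRIM28, and ADAR and SAMHD1, which act on RNA and on nucleotides. All 10 were among the 13036 genes measured, through 22 probe sets annotated to a single gene, of which 18 passed the signal filter. A probe set is a group of short probes against 1 transcript region. The filter asked for a signal above 6.21, the median over the whole table, on at least 2 of 6 arrays. The values are log2 signals, so a difference of 1 is a doubling.

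RNA was read on Affymetrix arrays and came from KARPAS-422 and Pfeiffer, 2 established human cell lines from diffuse large B-cell lymphoma, a cancer of the B cell lineage. Each line received a lentivirus with a hairpin against EZH2 (shEZH2) or with a non-targeting hairpin (shNTC), 1 hairpin sequence per arm, and the labels give 10 days. Both arms were infected over 2 days in 10% serum with 8 µg/ml of polybrene, which helps virus enter, and then kept for 2 days in 1 µg/ml of puromycin, which kills cells that took up none. KARPAS-422 had 2 arrays per arm, called biological replicates in the titles, while each Pfeiffer arm was a single array. Whether replicates were infected separately is not stated, so the p-values speak for the spread of these arrays alone, which may be technical. A single hairpin per arm leaves an effect of EZH2 loss and an effect of that one sequence impossible to tell apart. The EZH2 hairpin is shown because each comparison by arm rests on it, with the sense strand of 21 bases in capitals.
shEZH2: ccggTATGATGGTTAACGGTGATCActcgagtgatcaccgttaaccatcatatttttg

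EZH2 is the methyltransferase of Polycomb repressive complex 2, which marks histone H3 at lysine 27 and silences genes without methylating their DNA. A separate system methylates cytosine in CG pairs: DNMT3A and DNMT3B set the mark on unmethylated DNA, DNMT1 copies it after replication with the help of UHRF1, and TET enzymes oxidise it so that it can be removed. Retroelements are kept silent by this mark and by histone H3 lysine 9 methylation that TRIM28 and SETDB1 bring to them, while ADAR edits their double-stranded RNA and SAMHD1 breaks down the nucleotides that reverse transcription needs.

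The targeted gene was read first. In KARPAS-422, EZH2 gave 11.71 and 11.57 with shNTC against 10.52 and 10.55 with shEZH2, a fall of 1.11 on the log2 scale (SE 0.10, adjusted p = 7.73e-04, limma). In Pfeiffer the signal was 11.65 with shNTC and 10.24 with shEZH2. Arrays of 1 arm correlated at 0.978 and 0.982 in KARPAS-422, the arms at 0.950 to 0.955, the Pfeiffer arms at 0.977, and arrays of different lines at 0.724 to 0.753. Of 9 B cell markers with a probe set, 8 were measured, and MS4A1 (CD20) lay between 13.6 and 14.1 on all 6 arrays. EBF1, a defining B cell factor, was 12.7 to 12.9 in KARPAS-422 and 6.01 to 6.02 in Pfeiffer, at the level of the filter. Markers of other cells were also read in these lines, among them CD8A at 13.5 to 13.6 in Pfeiffer, EPCAM at 13.0 to 13.3 in Pfeiffer and DCN at 13.4 to 13.7 in KARPAS-422. Some markers moved with the hairpin in KARPAS-422. Of 5 measured T and NK cell markers 3 were lower with shEZH2, CD3D by 0.77 (adjusted p = 0.00943), CD3G by 0.64 (0.0417) and CD247 by 0.44 (0.0105). CD8A read 0.54 higher and CD3E 0.28 lower, and neither passed (0.104 and 0.601). Of the 8 B cell markers CD79B was 0.39 higher (0.0168) and BANK1 0.73 higher (0.0203). Each of these 5 calls was lost without shEZH2 replicate 1 (0.055 to 0.151). The summed signal of the T and NK markers was 13.3 to 13.4 on the KARPAS-422 shNTC arrays, 12.7 to 12.8 with shEZH2 and 14.0 to 14.1 in Pfeiffer, and that of the B cell markers 15.4 to 15.6, 15.6 to 15.7 and 15.2 to 15.3. Their part in the results below was not tested.

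In KARPAS-422, TET2 and SAMHD1 rose, and UHRF1 and TRIM28 fell. The other 6 genes did not pass the test at an adjusted p of 0.05 over all genes. A call was common in this comparison: 25.4% of the 13036 genes passed, 13.1% higher and 12.3% lower, and the 4 of 10 genes are read against that share. All but DNMT3A had KARPAS-422 arms that did not overlap, which held for 65.7% of all genes, 31.8% with shEZH2 higher and 33.9% with it lower. TET2 and SAMHD1 were the 2 past 1 log2 unit, as were 9.82% of all genes. In bulk RNA, fewer cells that express a gene and less RNA per cell cannot be told apart.

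**Figure D1:**
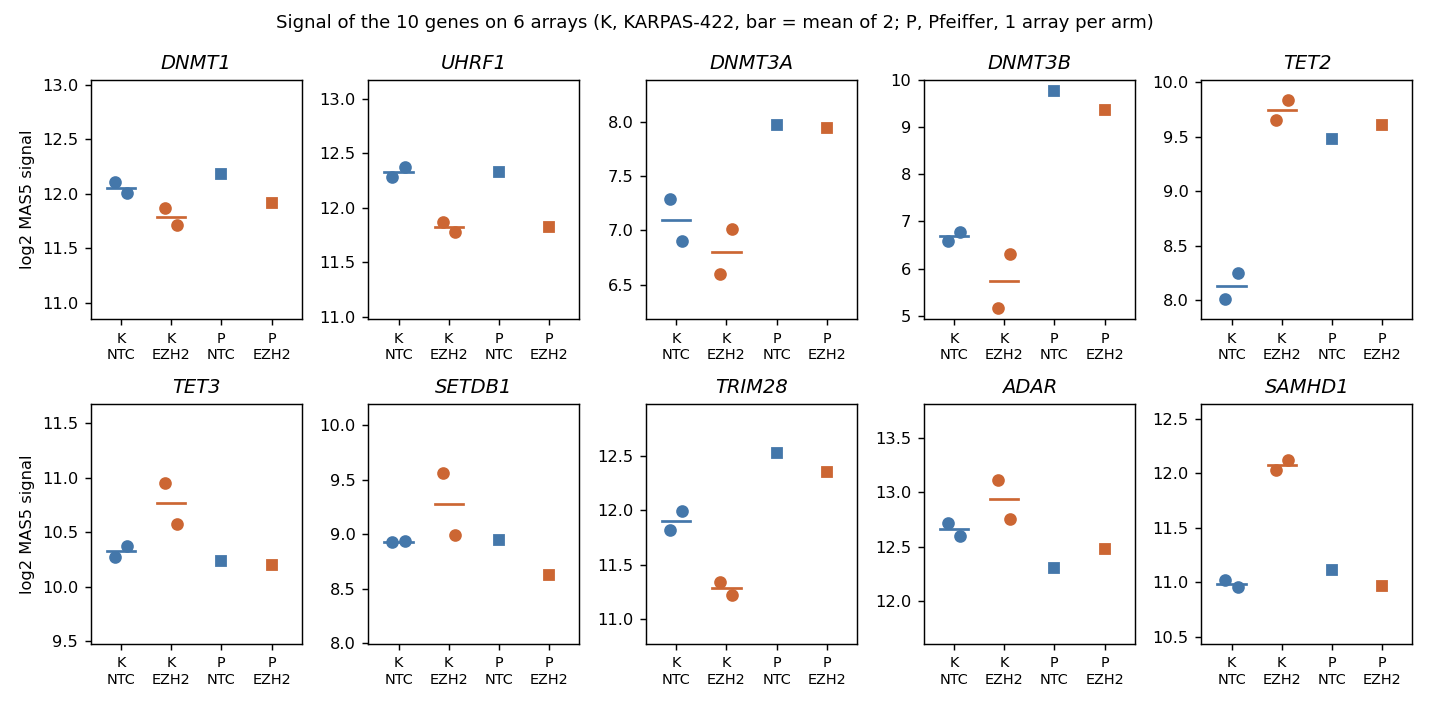
Log2 signal (vertical axis) of each of the 10 genes on the 6 arrays, by line and hairpin; circles are KARPAS-422 arrays with a bar at the mean of 2, and squares are Pfeiffer arrays, 1 per arm. Vertical ranges differ between genes. TET2 rose from 8.01 and 8.25 to 9.65 and 9.84 in KARPAS-422, while its Pfeiffer arrays read 9.47 and 9.61.

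UHRF1 and DNMT1 maintain DNA methylation through cell division. UHRF1 binds DNA methylated on one strand and brings DNMT1 to it. Its KARPAS-422 signal was 12.29 and 12.38 with shNTC and 11.87 and 11.77 with shEZH2, with 12.33 and 11.82 for Pfeiffer shNTC and shEZH2. Every shEZH2 array of either line lay below every shNTC array. The KARPAS-422 signal fell by 0.51 (SE 0.09, 95% interval -0.71 to -0.30, adjusted p = 0.00741), to 70.3% of the control level. Pfeiffer read 70.6% of its control, on single arrays. Over both lines, with the line as a term, UHRF1 was the 1 gene of the 10 that passed, with a fall of 0.51 (SE 0.08, adjusted p = 0.0289), where 6.22% of all genes passed and 2.46% were lower. Without shEZH2 replicate 2 the KARPAS-422 difference was -0.46 with an adjusted p of 0.0590, and without an intensity trend in the fit the adjusted p was 0.0776. The call over both lines was lost when any 1 KARPAS-422 array was left out: the adjusted p was 0.102 and 0.135 without shNTC replicates 1 and 2, and 0.167 and 0.165 without shEZH2 replicates 1 and 2.

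DNMT1, the enzyme that copies methylation to the new strand, read 12.10 and 12.01 in KARPAS-422 with shNTC and 11.87 and 11.71 with shEZH2. Pfeiffer read 12.18 and 11.92. The shEZH2 array lay below its controls in each line, but the Pfeiffer shEZH2 array was above both KARPAS-422 ones. The KARPAS-422 difference of -0.27 (SE 0.09, interval -0.49 to -0.05) did not pass, at an adjusted p of 0.0774, and neither did the same size of difference over both lines (adjusted p = 0.0979). DNMT1 was at 83.1% of control in KARPAS-422 and at 83.2% in Pfeiffer. Neither gene differed in level between the lines: the KARPAS-422 minus Pfeiffer difference was 0.00 for UHRF1 (interval -0.20 to 0.21) and -0.13 for DNMT1 (adjusted p = 0.288).

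Replication genes moved with UHRF1. Of 36 S phase and E2F target genes, 26 fell and 1 rose in KARPAS-422, with a median difference of -0.58 against -0.02 for all genes. In Pfeiffer the median was -0.41, and 2 of the 36 were higher on the shEZH2 array. MCM7, part of the replicative helicase, fell by 0.95 (SE 0.09, adjusted p = 9.04e-04), and CDC45, its cofactor, by 0.86 (SE 0.10, adjusted p = 0.0024). GINS4, of the same helicase, fell by 0.97 (-0.48 when its probe sets were averaged, adjusted p = 0.0714), and ORC1, which binds origins, by 0.91, but ORC1 not without shEZH2 replicate 2 (adjusted p = 0.0608). ORC6 was the gene that rose, by 0.42, and was lost without shNTC replicate 2 or either shEZH2 array (0.0624 to 0.0892). The count of genes that fell was 16 without shEZH2 replicate 1 and 11 without shEZH2 replicate 2. Without the intensity trend 0 of the 36 rose and 5 fell. Without probe sets that may cross-hybridise, 0 rose and 17 fell of 27, and MCM7, CDC45 and ORC6 had none left. The list was chosen with earlier results of these data known, so its counts are not an independent check. The part of these replication genes in the fall of UHRF1 was not tested.

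**Figure D2:**
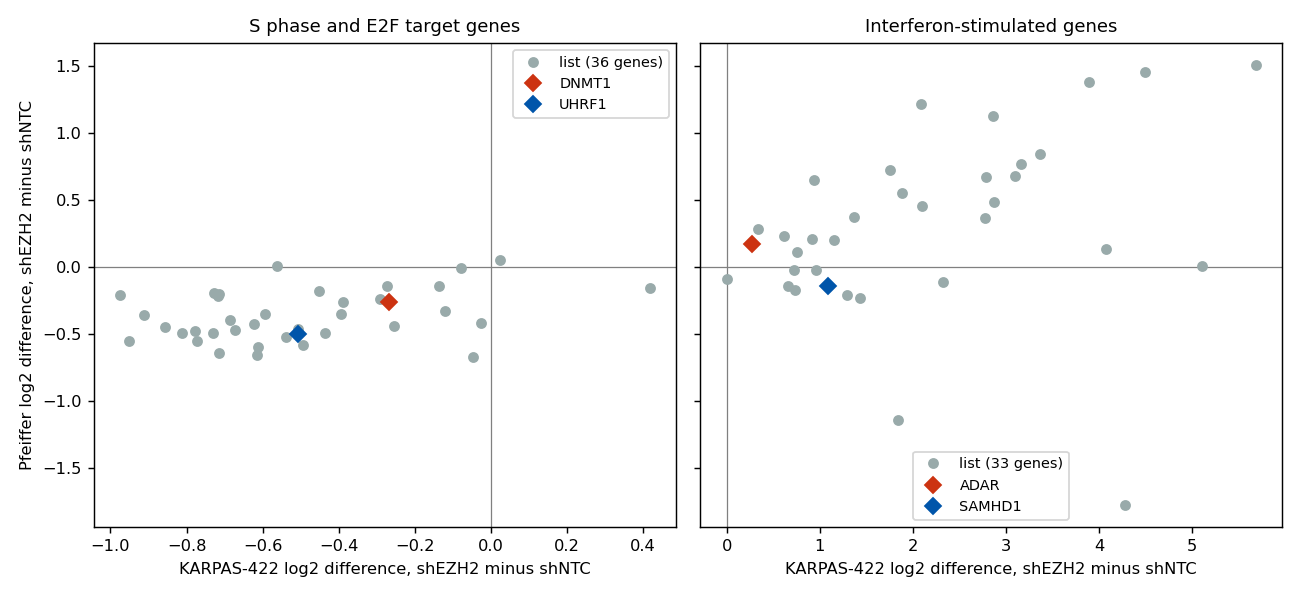
Difference of shEZH2 minus shNTC in log2 signal for KARPAS-422 (horizontal, means of 2 arrays per arm) and Pfeiffer (vertical, 1 array per arm); grey points are the 36 S phase and E2F target genes (left) and the 33 interferon-stimulated genes (right), diamonds the named genes. UHRF1 and DNMT1 lie among the S phase genes, below 0 on both axes; SAMHD1 lies at 1.09 and -0.14, and ADAR at 0.27 and 0.17.

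The upstream sequence of UHRF1 and DNMT1 is shown because the replication genes that fell are known targets of E2F factors, whose core letters TTTNNCGC were searched on both strands in the window from 250 bases before to 50 bases after the start of each gene (RefSeq, GRCh38.p14). Of the 10 genes, 9 had an entry, all but TRIM28. UHRF1 held 2 matches and DNMT1 held 1, the other 7 none, and 6.9% of 27305 promoters hold at least 1. The 250 bases before the UHRF1 start (chr19:4909251-4909500, plus strand) and 106 bases around the DNMT1 start (chr19:10194948-10195053, minus strand) follow, with the matches in capitals. The searched letters hold a CG pair, and the 6.9% was not matched for CG content. In CG pairs the window of UHRF1 exceeded 87.5% of promoters and that of DNMT1 77.9%, while TET3, at 96.6%, held no match. A match is a run of letters, not a shown binding site.
UHRF1: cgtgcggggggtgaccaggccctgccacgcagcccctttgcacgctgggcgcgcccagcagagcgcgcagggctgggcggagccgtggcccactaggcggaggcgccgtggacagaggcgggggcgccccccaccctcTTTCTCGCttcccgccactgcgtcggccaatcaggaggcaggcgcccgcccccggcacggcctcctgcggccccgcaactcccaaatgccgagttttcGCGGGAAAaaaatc
DNMT1: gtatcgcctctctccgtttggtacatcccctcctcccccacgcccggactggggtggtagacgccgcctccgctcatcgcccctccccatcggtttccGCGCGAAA

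The enzymes that set new methylation differed between the lines more than between the hairpins. DNMT3B read 6.58 and 6.77 in KARPAS-422 with shNTC, 5.15 and 6.31 with shEZH2, and 9.77 and 9.37 in Pfeiffer with shNTC and shEZH2. Both Pfeiffer arrays lay above all 4 KARPAS-422 arrays. The line difference was -3.36 (SE 0.34, interval -4.16 to -2.57, adjusted p = 1.17e-04, limma), or 10.3-fold higher in Pfeiffer. Level differences were common: 50.2% of genes passed between the lines, and 26.7% had the lower level in KARPAS-422. Of the 10 genes 3 were lower there, DNMT3A, DNMT3B and TRIM28, and 1 was higher, ADAR. The hairpin difference in KARPAS-422 was -0.95 (SE 0.38, interval -1.84 to -0.06, adjusted p = 0.108), and the 2 shEZH2 arrays were 1.16 apart. Without shEZH2 replicate 2, the higher of them, it was -1.53, which rests on the single value of 5.15. In Pfeiffer it was -0.41. The KARPAS-422 signals lay near or below the filter of 6.21, where log2 signals spread widely. Over the alternatives the line difference ranged from -3.70 to -2.55.

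DNMT3A was read by 3 probe sets that did not move alike. The gene's brightest, 244428_at, gave 7.29 and 6.90 with shNTC and 6.60 and 7.01 with shEZH2 in KARPAS-422, and 7.97 and 7.94 in Pfeiffer. The KARPAS-422 arms overlapped, with a difference of -0.29 (SE 0.27, interval -0.93 to 0.34, adjusted p = 0.465). The second, 222640_at, gave 5.39 and 6.78 against 6.58 and 6.59, a difference of 0.49 (SE 0.43, adjusted p = 0.448 over all kept probe sets). The third, 218457_s_at, fell below the filter, at 3.34 and 6.09 against 5.56 and 5.08. No direction by hairpin can be read from these. The line difference had one sign in both kept probe sets: -1.01 (SE 0.24, adjusted p = 0.00997), or 2.01-fold higher in Pfeiffer, for the first, and -2.82 (SE 0.38, adjusted p = 4.93e-04) for the second, where Pfeiffer read 9.18 and 9.12.

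TET2, which oxidises methylated cytosine and is often mutated in lymphoma, had the largest difference of the 10 in KARPAS-422 by brightest probe set. It read 8.01 and 8.25 with shNTC and 9.65 and 9.84 with shEZH2. Pfeiffer was at 9.47 and 9.61 on its shNTC and shEZH2 arrays. The KARPAS-422 control arrays were thus the low ones, and all other 4 arrays lay within 9.47 to 9.84. The rise was 1.61 (SE 0.15, interval 1.25 to 1.98, adjusted p = 9.06e-04), or 3.06-fold, and it passed under all 16 alternative settings, at 1.41 to 1.73. The difference in Pfeiffer was 0.14.

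The knockdown effect on TET2 was smaller in Pfeiffer by 1.48 (SE 0.27, interval -2.10 to -0.85, adjusted p = 0.0483), in a comparison where 1.7% of genes passed and 1.25% were lower. That test takes the single Pfeiffer arrays to vary as KARPAS-422 arrays do. It was lost in 10 of 15 alternatives, with adjusted p from 0.0132 to 0.228. Without shEZH2 replicate 1 the difference was -1.57 (adjusted p = 0.206), and without shEZH2 replicate 2 it was -1.38 (adjusted p = 0.228). The comparisons of KARPAS-422, of both lines and between the effects share arrays, so they are not separate tests. Over both lines TET2 gave 1.12 (SE 0.28, adjusted p = 0.0557).

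The other 2 TET2 probe sets were dim and below the filter. One, 1569385_s_at, read 2.42 and 3.52 with shNTC and 6.01 and 4.67 with shEZH2 in KARPAS-422, and 3.37 and 5.31 in Pfeiffer. The other, 235461_at, read 3.38 and 2.48 against 4.05 and 5.51, and 2.75 and 5.73 in Pfeiffer. On both, each shEZH2 array lay above its line's shNTC arrays, also in Pfeiffer, where the bright probe set moved by 0.14. Signals this low spread widely on the log2 scale, and these were not tested. The 250 bases before the TET2 start (chr4:105145625-105145874, plus strand, RefSeq GRCh38.p14) are shown because TET2 had the largest rise, with CG pairs, the letters that DNA methyltransferases act on, in capitals. They hold 10 CG pairs, where the median of 27305 promoters is 11, and the letters bound by interferon factors (GAAA, any 2 bases, GAAA, the core of the interferon-stimulated response element, and TTCNNNGAA, searched on both strands) do not occur within the 300-base window.
TET2: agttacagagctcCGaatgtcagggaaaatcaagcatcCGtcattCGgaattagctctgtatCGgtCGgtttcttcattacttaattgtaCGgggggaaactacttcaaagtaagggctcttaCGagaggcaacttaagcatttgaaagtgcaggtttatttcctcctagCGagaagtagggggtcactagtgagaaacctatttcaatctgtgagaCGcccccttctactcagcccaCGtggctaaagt

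TET3, the second oxidising enzyme measured, gave unequal answers by probe set. Its brightest, 235542_at, read 10.28 and 10.37 with shNTC, 10.95 and 10.58 with shEZH2, and 10.23 and 10.20 in Pfeiffer. The KARPAS-422 arms did not overlap, and the difference of 0.44 (SE 0.14, interval 0.10 to 0.78) had an adjusted p of 0.063. The middle one, 214754_at, read 7.13 and 7.43 against 8.13 and 7.74, and 7.0 against 7.70 in Pfeiffer. Its difference was 0.65 (SE 0.24, adjusted p = 0.0922) in KARPAS-422 and 0.70 in Pfeiffer. The dim 1554641_a_at read 3.56 and 4.48 against 6.97 and 6.42, and 4.45 against 6.34 in Pfeiffer.

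The dim probe set lay above 6.21 on the 3 shEZH2 arrays alone, so it entered the test through the arm in which it was high, and its pass is not support for a rise of TET3. It gave a difference of 2.68 (SE 0.56, adjusted p = 0.0176) in KARPAS-422 and of 2.42 (SE 0.47, adjusted p = 0.0378) over both lines, where 3.1% of kept probe sets were higher. Its size depended on the low signals: with 16 added to each linear signal the KARPAS-422 difference was 1.88, and with 64 added it was 1.06. Without shEZH2 replicate 1 the adjusted p was 0.142, and without replicate 2 it was 0.0826. The brightest probe set passed, at an adjusted p of 0.0496, where 4 of 6 arrays had to lie above the filter.

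**Figure D3:**
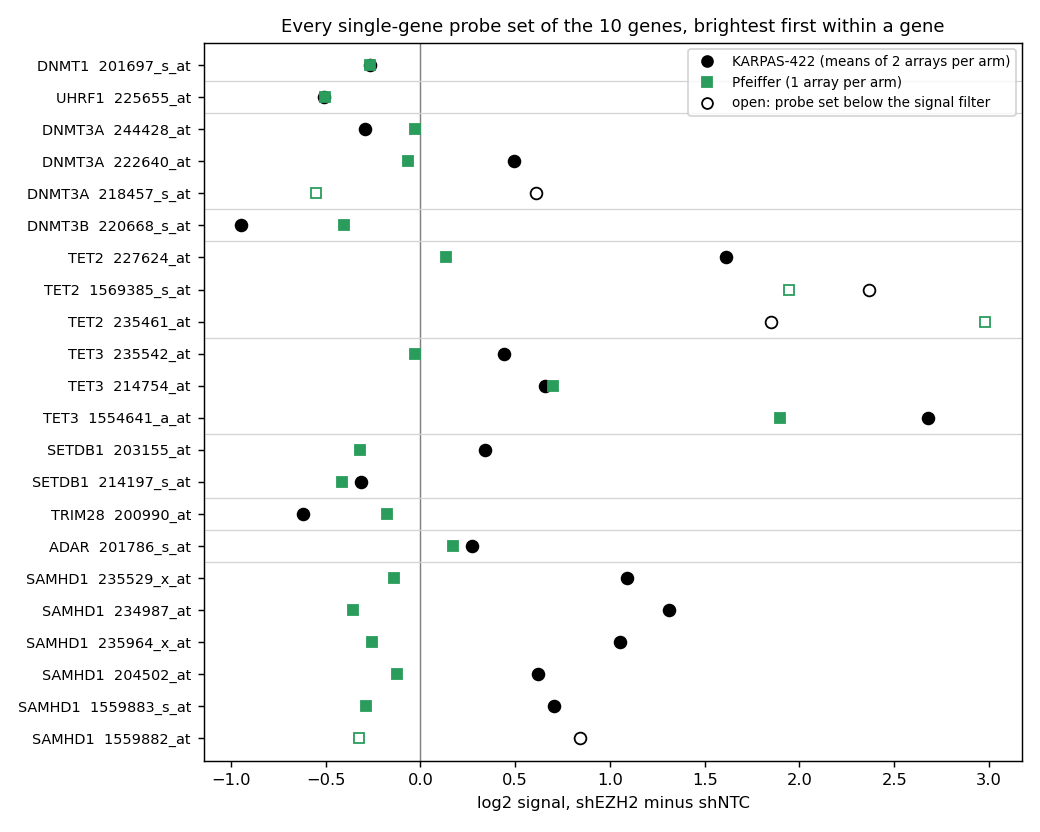
Difference of shEZH2 minus shNTC in log2 signal (horizontal axis) for each of the 22 probe sets, brightest first within a gene; circles are KARPAS-422 (means of 2 arrays per arm), squares Pfeiffer (1 array per arm), and open symbols probe sets below the filter. All 6 SAMHD1 probe sets lie above 0 in KARPAS-422 and below 0 in Pfeiffer, and those of DNMT3A and SETDB1 fall on both sides of 0 in KARPAS-422.

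Among the partners and readers of DNA methylation, 24 of 26 listed genes were measured. In KARPAS-422 5 rose and 8 fell, with a median of -0.12, against a Pfeiffer median of -0.07. This balance depended on the processing: 6 rose and 2 fell after cyclic loess (median -0.01), 6 and 5 with the mean of probe sets (0.10), and 5 and 3 of 17 without probe sets that may cross-hybridise (0.17). GADD45A, a stress gene linked to demethylation, rose by 2.64 (SE 0.10, adjusted p = 4.01e-05), and ZBTB38, a reader of methylated DNA, by 1.00 (SE 0.14, adjusted p = 0.0033). CDCA7, which helps remodel chromatin for methylation, fell by 0.64 (SE 0.08, adjusted p = 0.00244, or 0.0561 without the intensity trend). These 3 passed whichever KARPAS-422 array was left out. ZBTB4 rose by 0.96 and IDH2 by 0.46, and both were lost without either shEZH2 array (adjusted p of 0.0529 to 0.0728). LIG1, the ligase of replicating DNA, fell by 0.76 and was lost likewise (0.056 and 0.055). MBD2, a reader that fell by 0.49, was lost without shEZH2 replicate 1 (0.0588), and USP7, which stabilises UHRF1 and DNMT1 and fell by 0.47, without shNTC replicate 1 or either shEZH2 array (0.0639 to 0.137). With the mean of their probe sets USP7 read -0.030 (adjusted p = 0.875) and MBD2 -0.20 (0.240), so neither fall held across probe sets. Without shEZH2 replicate 1, 2 rose and 1 fell, and without shEZH2 replicate 2, 2 rose and 3 fell. Without shNTC replicate 1 the counts were 4 and 4, and without shNTC replicate 2 they were 5 and 5.

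The methyl donor cycle supplies S-adenosylmethionine to all of these methyltransferases. Of its 10 measured genes, 0 rose and 5 fell in KARPAS-422 by limma (0 rose and 6 fell at an unadjusted p under 0.05), with a median of -0.29. AHCY, which clears the product that inhibits methyltransferases, fell by 0.52 (SE 0.08, adjusted p = 0.00478) and passed whichever array was left out. SHMT2 fell by 0.96, MTHFD1 by 0.44 and TYMS by 0.32, all enzymes of folate metabolism, and each of these was lost without shEZH2 replicate 2 (adjusted p of 0.112, 0.0539 and 0.113). SHMT2 was also lost without shEZH2 replicate 1 (0.085), and TYMS whichever array was left out. The count that fell was 2 and 1 without shEZH2 replicates 1 and 2, and 3 without shNTC replicate 1. After cyclic loess 3 fell, with a median of -0.08. Without the intensity trend 0 rose and 0 fell, and the adjusted p of AHCY was 0.0721. AHCY had no probe set left without those that may cross-hybridise. In Pfeiffer the median was -0.09.

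TRIM28 (KAP1) is the scaffold that zinc finger proteins bring to retroelements. It read 11.82 and 11.99 in KARPAS-422 with shNTC, 11.34 and 11.22 with shEZH2, and 12.52 and 12.35 in Pfeiffer. Both KARPAS-422 shEZH2 arrays lay below both controls, and both Pfeiffer arrays above all of these. The fall was 0.62 (SE 0.10, interval -0.85 to -0.39, adjusted p = 0.00577), to 65.1% of control. Without shEZH2 replicate 2 it was -0.56 with an adjusted p of 0.0557, and without the intensity trend the adjusted p was 0.0705. In Pfeiffer the difference was -0.18, and over both lines -0.47 (SE 0.12, adjusted p = 0.0546). The Pfeiffer effect was closer to 0 by 0.44 (interval 0.04 to 0.84), a difference that did not pass (adjusted p = 0.249). In level TRIM28 was 1.79-fold higher in Pfeiffer, with a line difference of -0.84 (SE 0.12, adjusted p = 8.49e-04).

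SETDB1, the histone H3 lysine 9 methyltransferase that TRIM28 recruits, gave no direction. Its brightest probe set, 203155_at, read 8.93 on both arrays with shNTC, 9.56 and 8.99 with shEZH2, and 8.95 and 8.63 in Pfeiffer. The difference of 0.34 in KARPAS-422 (SE 0.20, interval -0.13 to 0.82, adjusted p = 0.256) came from shEZH2 replicate 1, since replicate 2 lay beside the controls. The other probe set, 214197_s_at, read 7.81 and 8.04 against 7.59 and 7.63, the opposite order, with a difference of -0.32 (SE 0.20, adjusted p = 0.302). In Pfeiffer the differences were -0.32 and -0.42.

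Of the other genes of histone H3 lysine 9 silencing and the HUSH complex, 28 of 29 were measured, and 4 rose and 5 fell in KARPAS-422, with a median of -0.12. CHAF1A, the large subunit of the replication-coupled chromatin assembly factor, fell by 0.80 (SE 0.10, adjusted p = 0.00288). It passed whichever array was left out, but its probe set may cross-hybridise, and without such probe sets the gene read -1.10 and did not pass (adjusted p = 0.145). MORC3 rose by 1.06 (adjusted p = 0.00509) and was lost without shEZH2 replicate 2 (0.0603). SETDB2 rose by 0.56, TASOR2 by 0.43 and ATRX by 0.30, and SUV39H2, a lysine 9 methyltransferase, fell by 0.52, CHAF1B by 0.50 and TRIM24 by 0.50. Each of these 6 was lost without either shEZH2 array, at adjusted p between 0.0655 and 0.211. ATRX and CHAF1B were also lost without either shNTC array (0.0754 to 0.144), and SUV39H2, TASOR2 and TRIM24 without shNTC replicate 2 (0.0574 to 0.063). Without shEZH2 replicate 1 the list gave 1 rise and 1 fall, without shEZH2 replicate 2 there was 1 fall, and without shNTC replicate 2 there were 4 rises and 1 fall. In Pfeiffer the median was -0.02.

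SAMHD1, which degrades deoxynucleotides and restricts retroviruses, was the gene of the 10 with the most probe sets and the smallest spread within arms (residual SD 0.053). Its brightest, 235529_x_at, read 11.02 and 10.95 with shNTC and 12.04 and 12.12 with shEZH2 in KARPAS-422. Pfeiffer read 11.11 and 10.97, by this probe set at the level of the KARPAS-422 controls. The rise in KARPAS-422 was 1.09 (SE 0.09, interval 0.87 to 1.31, adjusted p = 6.08e-04), or 2.13-fold, and passed under all 16 alternatives, at 0.96 to 1.31. The Pfeiffer difference was -0.14.

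The effect on SAMHD1 was lower in Pfeiffer by 1.23 (SE 0.16, interval -1.61 to -0.85, adjusted p = 0.0162). The adjusted p was 0.140 without shEZH2 replicate 1 and 0.135 without shEZH2 replicate 2, and 0.164 without the intensity trend. Over both lines the difference was 0.68 (SE 0.23, adjusted p = 0.0995).

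The other SAMHD1 probe sets moved the same way in KARPAS-422 with unequal size. The probe set 234987_at read 10.95 and 10.91 against 12.29 and 12.20, a rise of 1.31 (SE 0.09, adjusted p = 4.38e-04), and 10.80 and 10.44 in Pfeiffer. Its effect was lower in Pfeiffer by 1.67 (difference -1.67, adjusted p = 0.00804), as it was for 0.941% of kept probe sets. The probe set 204502_at rose by 0.62 (SE 0.11, adjusted p = 0.0103), from 10.50 and 10.39 to 11.04 and 11.10, and read 9.34 and 9.21 in Pfeiffer. Rises of 1.05 and 0.71 also passed for 235964_x_at and 1559883_s_at. The difference in effect between the lines did not pass for 235964_x_at (-1.31), 204502_at (-0.75) or 1559883_s_at (-0.99). Of all kept probe sets 12.4% were higher and 9.1% lower, and of the 18 described here 7 were higher, 5 of them of SAMHD1, and 2 lower. The dim TET3 probe set is among the 7. All 6 probe sets of SAMHD1, the dim 1559882_at included, read lower on the Pfeiffer shEZH2 array, with differences of -0.13 to -0.36 and no replicate behind them. They share the transcript and the arrays and do not count as replicates.

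The level of SAMHD1 between the lines depended on the probe set, in a comparison that 48.9% of kept probe sets passed. SAMHD1 was 0.49 (adjusted p = 0.126) higher in KARPAS-422 by 235529_x_at but 1.48 (adjusted p = 2.23e-04) by 204502_at. By 234987_at, 235964_x_at and 1559883_s_at it was 0.97, 1.35 and 1.16 higher (adjusted p of 0.0333, 0.00401 and 0.0042). The 250 bases before its start (chr20:36951709-36951958, minus strand, RefSeq GRCh38.p14) are shown for comparison with TET2, with 14 CG pairs in capitals. They too hold none of the interferon letters, which occur in 3.65% (the response element core) and 7.88% (TTCNNNGAA) of all promoters and in 0 of the 9 searched here. That says only that these letters are absent from the 300-base windows.
SAMHD1: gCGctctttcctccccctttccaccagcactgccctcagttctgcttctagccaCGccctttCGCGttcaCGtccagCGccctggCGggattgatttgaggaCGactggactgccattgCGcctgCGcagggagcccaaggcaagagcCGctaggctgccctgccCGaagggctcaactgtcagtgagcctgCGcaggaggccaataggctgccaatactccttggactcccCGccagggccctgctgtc

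ADAR, which converts adenosine to inosine in double-stranded RNA, read 12.72 and 12.60 with shNTC and 13.11 and 12.76 with shEZH2 in KARPAS-422, and 12.31 and 12.48 in Pfeiffer. The shEZH2 arrays lay above their controls in each line, in KARPAS-422 by little for replicate 2. The difference was 0.27 (SE 0.12, interval -0.01 to 0.56, adjusted p = 0.14), and over both lines 0.24 (adjusted p = 0.19). It passed in KARPAS-422 after quantile normalization, at 0.45 (adjusted p = 0.0251), and after cyclic loess, at 0.46 (adjusted p = 0.0308). ADAR was 1.32-fold higher in KARPAS-422 (line difference 0.40, SE 0.12, adjusted p = 0.02, or 0.0751 without the intensity trend), where 23.5% of genes were.

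**Figure D4:**
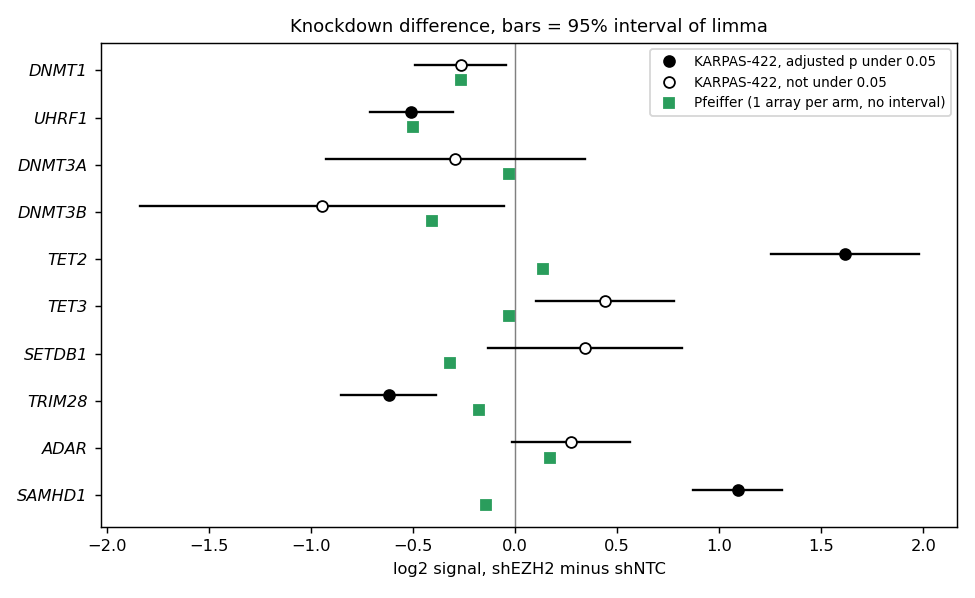
Difference of shEZH2 minus shNTC in log2 signal (horizontal axis) for each gene's brightest kept probe set; circles are KARPAS-422 with the 95% interval of limma, filled where the adjusted p was under 0.05, and squares are Pfeiffer, 1 array per arm with no interval. UHRF1 and DNMT1 have nearly the same value in both lines, while TET2 and SAMHD1 lie at 1.61 and 1.09 in KARPAS-422 and at 0.14 and -0.14 in Pfeiffer.

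Interferon-stimulated genes, to which ADAR and SAMHD1 belong in many cells, rose with SAMHD1 in KARPAS-422. Of 33 measured, which exclude the genes described here, 32 rose and 0 fell in KARPAS-422 by limma (0 fell at an unadjusted p under 0.05), with a median of 1.89. GBP1, among the 32, lay above the filter on the KARPAS-422 shEZH2 arrays alone, so it entered through the arm in which it was high. Where 4 of 6 arrays had to pass, 31 of 32 rose, with a median of 1.86. IFI27 rose by 5.68 (SE 0.18, adjusted p = 3.11e-05) and RSAD2 by 5.10 (SE 0.15, adjusted p = 3.11e-05), with IFIT2 at 4.49 and XAF1 at 4.28 next. In Pfeiffer the median was 0.28, and the effect was lower there for 21 of the 33. On the Pfeiffer shEZH2 array 23 of the 33 were higher, while SAMHD1 differed by -0.14. This list too was chosen with earlier results of these data known, so its counts are not an independent check. The part of the interferon-stimulated genes in the rise of SAMHD1 in KARPAS-422 was not tested.

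Of the other genes that restrict retroelements as RNA or new DNA, 16 of 24 listed were measured. In KARPAS-422 7 rose, 1 fell and 8 did not pass, with a median of 0.60, and the effect was lower in Pfeiffer for 4. MX2 rose by 2.74 (SE 0.15, adjusted p = 1.03e-04), IFI16, a DNA sensor, by 2.02 (SE 0.11, adjusted p = 1.03e-04), MOV10, an RNA helicase that inhibits LINE-1, by 1.93 (SE 0.18, adjusted p = 8.23e-04) and TRIM5 by 1.57 (SE 0.13, adjusted p = 4.66e-04). In Pfeiffer the same 4 read 0.05, -0.14, -0.32 and -0.14. RNASEH2A, which cuts RNA in RNA-DNA hybrids, fell by 0.59 (SE 0.09, adjusted p = 0.00454). The list median was 0.21 without shNTC replicate 1. With 64 added to linear signals it was 0.26, with 7 rises and 1 fall. Without probe sets that may cross-hybridise, 4 rose and 1 fell of 11 (median 0.25), and MOV10, TRIM5 and IFI16 had none left. Without the intensity trend 5 rose and 0 fell.

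Genes that edit or sense double-stranded RNA gave 9 rises and 3 falls of 18 measured in KARPAS-422, with a median of 0.31 and of -0.07 in Pfeiffer. IFIH1 (MDA5), a sensor of long double-stranded RNA, rose by 5.57 (SE 0.30, adjusted p = 9.88e-05) and OAS2 by 2.73 (SE 0.13, adjusted p = 5.56e-05). ZBP1 (4.93, adjusted p = 9.07e-04) and DHX58 (3.86, adjusted p = 0.00425) lay above the filter on the 2 KARPAS-422 shEZH2 arrays alone, so the filter took them in through the arm in which they were high. Where 4 of 6 arrays had to pass, both left the list, which then gave 7 rises and 3 falls of 16, with a median of 0.12. DHX58 was also lost without shEZH2 replicate 1 or 2 (0.0751 and 0.0673). DHX9, a helicase that unwinds such RNA, fell by 0.78 (SE 0.14, adjusted p = 0.00847). ILF2 fell by 0.43, but not without either shEZH2 array (0.0543 and 0.0537). PRKRA fell by 0.37, was lost whichever array was left out (0.0535 to 0.109) and read 0.22 without probe sets that may cross-hybridise. The effect was lower in Pfeiffer for 6 of the 18 and higher for 1, TLR3. With shEZH2 replicate 1 or 2 left out, 7 rose and 1 fell.

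Genes of the deoxynucleotide pool, on which SAMHD1 acts, gave 1 rise and 5 falls of 16 in KARPAS-422, with a median of -0.18 and of -0.12 in Pfeiffer. RRM2, the S phase subunit of ribonucleotide reductase, fell by 0.51 (SE 0.08, adjusted p = 0.00531), but its probe sets other than those that may cross-hybridise gave -0.11 (adjusted p = 0.492). DCTPP1 fell by 0.59 (SE 0.08, adjusted p = 0.00289), and NT5C3A, a nucleotidase, rose by 1.04 (SE 0.13, adjusted p = 0.0028). TK1 fell by 0.42 and was lost whichever array was left out (0.0559 to 0.11), and CDADC1 fell by 0.55 and was lost without either shEZH2 array (0.0751 and 0.076). Without shEZH2 replicate 1 or 2 there was 1 rise and 3 falls, and without shNTC replicate 2 there were 2 rises and 4 falls. After cyclic loess the median was -0.02.

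Few retroelement products could be read. Of 24 listed genes derived from retroelements, 7 were measured, and 2 rose and 1 fell in KARPAS-422. ANKRD13C-DT, listed under its older name HHLA3, rose by 1.62 (SE 0.18, adjusted p = 0.00164). Its probe set may cross-hybridise, and without such probe sets the gene had none left. ERVK13-1 rose by 0.80 (SE 0.19, adjusted p = 0.0214) but read 0.66 (adjusted p = 0.145) with shEZH2 replicate 1 left out and 0.93 (adjusted p = 0.0762) with replicate 2 left out. PEG10, a domesticated retrotransposon gene, fell by 0.49 (SE 0.08, adjusted p = 0.00638), and without shEZH2 replicate 1 the adjusted p was 0.0514. The counts were 1 and 0 without shEZH2 replicate 1, and 1 and 1 without replicate 2. Repeats themselves have no gene symbol in the annotation and were not analysed here.

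Of 30 germline genes that DNA methylation keeps silent in other cells, 5 passed the filter, and by limma 0 rose and 0 fell in KARPAS-422, with 0 at an unadjusted p under 0.05 in either direction. SSX1 differed by 1.17 (SE 0.92, adjusted p = 0.39) and CTAG2 by -0.39 (SE 0.44, adjusted p = 0.55). Both of these and MAGEB2 read below the filter on every KARPAS-422 array (2.36 to 5.84) and entered through Pfeiffer. Without shNTC replicate 2, SSX1 gave 2.85, and without shNTC replicate 1 it gave -0.51, from these low signals. MAGEA1 was already high in KARPAS-422, at 12.08 to 12.14, against 3.49 and 4.53 in Pfeiffer. Where 4 of 6 arrays had to pass, 2 genes were left, so the list says little about silenced germline genes in KARPAS-422. DNA methylation itself was not measured.

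In Pfeiffer 0 of the 10 genes moved by 1 log2 unit or more by brightest probe set. Dimmer ones did: TET3 1554641_a_at read 1.90 higher with shEZH2. TET2 1569385_s_at and 235461_at, both below the filter, read 1.95 and 2.98 higher. Of all genes 4.71% moved by 1 log2 unit or more, 3.23% higher and 1.48% lower, on single arrays with no test. Between KARPAS-422 replicates 5.99% of genes were that far apart with shNTC and 4.36% with shEZH2. Ranked by the KARPAS-422 difference, TET2 lay above 97.1% of all genes and SAMHD1 above 93.9%, while 3.23% lay below DNMT3B, 8.91% below TRIM28 and 12.9% below UHRF1. Over both lines 0 of the 10 were higher by limma (2 at an unadjusted p under 0.05, TET2 and SAMHD1), where 3.76% of all genes were.

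The genes whose log2 signal followed each called gene most closely over the 6 arrays, by Pearson r, are given as a description, since the arrays share lines and arms. For SAMHD1 they were MOV10 (0.998), FGFR1OP2 (0.995) and VAV1 (0.992), and for TET2 NEU1 (0.997), RYBP (0.995) and SLC35B3 (0.993). For UHRF1 they were DTYMK (0.994), DNAH1 (0.992) and YRDC (0.988), and for TRIM28 MYDGF (0.998), TYRO3 (0.998) and NDUFAF8 (0.997).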

How the data were processed

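Sample titles gave the groups and replicate numbers. The authors deposited 1 table of log2 signals for the 6 arrays, made with MAS5 (version not stated) per the submitters' processing notes. The log base and scaling were read from the values, since 2 to the power of each value had a 2% trimmed mean close to 500 on every array. MAS5 scales each array alone and spreads dim signals widely. No detection call or scan date was used here, and the number of arrays limits the precision.

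Probe sets with 1 gene symbol were kept where at least 2 of 6 arrays passed the median of all values (6.21), which gave 25186 probe sets and 13036 genes, each read by its brightest. Differences were tested two-sided in limma 3.58.1 (R 4.3.3; lmFit and trended eBayes). Adjusted p-values are Benjamini-Hochberg values over all genes, with a threshold of 0.05. A model of 4 groups gave the KARPAS-422 and between-line differences (2 residual and 5.24 prior degrees of freedom), and an additive model of line and hairpin gave the others. Probe sets were fitted likewise.

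All probe sets of the 10 genes are named. From each list, up to 4 genes per direction called in KARPAS-422 with non-overlapping arms are named. The genes and lists were chosen with earlier results of these data known. On data simulated like KARPAS-422 with 200 of 13036 genes changed, 70% of changes of 1 log2 unit and 93% of 2 were recovered. There 12 unchanged genes were called. For the difference in effect between the lines 35% and 72% were recovered. In the KARPAS-422 data 25.4% of genes passed, more than were changed in the simulation, so these rates may not carry over. Normalization, added signal, filter, probe set choice, the trend, a replicate block and left-out arrays were varied.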

Additional observations from a re-analysis of the deposited data

Results flagged for a closer look

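The knockdown effects of 2 genes differed between the lines by limma. For TET2 the Pfeiffer difference was lower than that of KARPAS-422 by 1.48 (adjusted p = 0.0483, value -1.48), with 0.14 in Pfeiffer and 1.61 in KARPAS-422. Its control level was 9.47 in Pfeiffer and 8.01 and 8.25 in KARPAS-422. For SAMHD1 the same measure was -1.23 (adjusted p = 0.0162), with -0.14 and 1.09, from control levels of 11.11 in Pfeiffer and 11.02 and 10.95 in KARPAS-422. The call was lost in 10 of 15 alternatives for TET2 and in 3 of 15 for SAMHD1. Pfeiffer had 1 array per arm. Each group had too few arrays for a check of single outlying arrays.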

How the results depend on the processing

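The rises of TET2 and SAMHD1 in KARPAS-422, the 3 genes lower there than in Pfeiffer and the 0 of 10 genes past 1 log2 unit in Pfeiffer held under all alternatives run for them. The cause of the changes below was not tested, except that another DNMT3A probe set became the brightest after quantile normalization and with 16 or 64 added, and that fewer arrays enter when 1 is left out. DNMT3A reversed in KARPAS-422 to 0.37 after quantile normalization, 0.39 and 0.23 with 16 and 64 added to linear signals and 0.10 with the mean of probe sets. Over both lines the same settings gave it 0.21, 0.24, 0.14 and 0.051, and between the effects -0.48, -0.45, -0.29 and -0.15. SETDB1 over both lines was -0.019 after quantile normalization, -0.11 with the mean of probe sets and -0.10 to 0.22 with 1 array left out.

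Differences near 0 changed sign. Between the effects, quantile normalization, median centring and cyclic loess gave -0.026, -0.058 and -0.078 for DNMT1 and -0.037, -0.054 and -0.082 for UHRF1. With 1 array left out DNMT1 gave -0.078 to 0.082, UHRF1 -0.043 to 0.056, DNMT3B -0.035 to 1.12 and ADAR -0.28 to 0.073. In level UHRF1 gave -0.039 and -0.057 after quantile normalization and cyclic loess and -0.018 to 0.025 with 1 array left out, and DNMT1 gave 0.096 after median centring, which moved the median of all genes between the lines from -0.05 to 0.18.

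Of the 10 genes, 1 differed in effect between the lines after quantile normalization, cyclic loess, 16 or 64 added, no filter, the mean of probe sets, and without probe sets that may cross-hybridise. Over both lines 2 were lower after median centring, with 64 added, and where 4 of 6 arrays had to pass, and 1 was higher with 64 added, under that filter and with the mean of probe sets, there TET3, whose mean holds the probe set that passed through its shEZH2 arrays alone. In level 3 were higher in KARPAS-422 after median centring and 2 with the mean of probe sets.

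Counts over all genes moved too. Lower over both lines were 1031 after median centring, 99 with no filter (203 higher) and 151 without cross-hybridising probe sets, where 901 were lower in KARPAS-422. A higher effect in Pfeiffer was called for 37 with 64 added, 20 with no filter (94 lower), 106 under the stricter filter and 30 with the mean of probe sets. Past 1 log2 unit in Pfeiffer were 397 and 139 with 16 and 64 added, 3041 with no filter and 328 under the stricter filter.

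Without the intensity trend, 586 genes were higher and 134 lower in KARPAS-422 (863 and 113 probe sets), with 0 of the 10 genes lower (2 at an unadjusted p under 0.05) and 3 of their probe sets higher and 0 lower. Then limma called 0 genes higher and 0 lower over both lines (1855 and 1337 at an unadjusted p under 0.05, 2 of the 10 genes lower among them), 0 higher and 1 lower effect in Pfeiffer (819 higher unadjusted), 0 of the 10 lower in effect (2 unadjusted), and 0 of them higher in KARPAS-422 in level (1 unadjusted).

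With 1 array left out, 539 to 1649 genes were higher and 418 to 1113 lower in KARPAS-422, with 1 to 2 of the 10 genes lower. By probe set the ranges were 1099 to 2667 and 841 to 1410, and 4 to 7 of theirs higher. Over both lines 0 to 15 genes were higher and 0 to 2 lower, with 0 of the 10 lower throughout (2 to 3 at an unadjusted p under 0.05). Between the effects 0 to 128 were higher and 0 to 345 lower, with 0 to 2 of the 10 lower.

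Of the 49 list genes called in KARPAS-422 and named by the rule, 29 lost the call without the intensity trend, 21 and 22 without shEZH2 replicates 1 and 2, 6 and 9 without shNTC replicates 1 and 2, 8 with the mean of probe sets, 6 after cyclic loess, and 5 without cross-hybridising probe sets, where 17 more had none left and PRKRA reversed to 0.22.

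The replicate numbers are only names here: deviations of same-numbered arrays correlated at 0.00651 over genes, from 2 pairs. With the replicate number as a block, 9 genes were higher and 2 lower over both lines, 0 of the 10 lower (4 at an unadjusted p under 0.05), 156 genes had a higher effect in Pfeiffer, and 4 of their probe sets were lower in KARPAS-422, where DNMT1 (adjusted p = 0.0417) and ADAR (0.0394) passed.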
